A study of Mus musculus with 10 samples.

Results

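The integrated stress response was followed at the RNA level in granulocyte-macrophage progenitors (GMPs) sorted from mouse bone marrow shortly after deletion of *Mpc2*, which encodes a subunit of the mitochondrial pyruvate carrier. The genes described are 10 named regulators and targets of this response, *Atf4*, *Atf5*, *Atf3*, *Ddit3*, *Nupr1*, *Trib3*, *Chac1*, *Ddit4*, *Sesn2* and *Ppp1r15a*, taken by name from the 51717 genes that the quantified transcripts were summed to. All 10 were found in the files. Of these, 7 had enough reads to be tested among the 12381 genes that passed the filter on low counts, and *Atf3*, *Trib3* and *Ddit4* did not.

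The study compared 5 WT samples with 5 recent KO samples of GMPs carrying CD45.2. WT donors were *ROSA26 CreER*+/-, and recent KO donors were *Mpc2* fl/fl; *ROSA26 CreER*+/-, all male on a C57Bl6/N background. The ages of the mice were not given in the sources used here. Both groups carried the tamoxifen-activated Cre and received tamoxifen chow for 2 wk, after which they were analysed at once, so that Cre and tamoxifen were shared by the controls. Cre was expressed from the ubiquitous *ROSA26* locus, and deletion was therefore not limited to GMPs. The donor marrow had been transplanted into irradiated CD45.1 recipients. The study made full chimeras as well as chimeras in which donor marrow was mixed with WT CD45.1 marrow. Its RNA-seq methods do not say which kind gave these samples. In the paper, full chimeras of *Mpc2* KO marrow did not survive 2 wk of tamoxifen. The recent KO samples, taken after 2 wk, would thus have come from mixed chimeras, with WT competitor cells present. For the WT samples the kind is not stated. Cells of 2 mice were pooled for each recent KO sample, whereas 1 mouse gave each WT sample. The labels call the samples of a group biological replicates, and the p-values below weigh group differences against the spread between these samples. That spread is between pools of 2 mice in recent KO and between mice in WT. Pooling and genotype therefore cannot be told apart.

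In the integrated stress response, kinases that sense unfolded protein in the endoplasmic reticulum (ER), missing amino acids, double-stranded RNA or mitochondrial damage phosphorylate the translation factor eIF2α. General translation then falls, while the *Atf4* mRNA, whose upstream reading frames hold back its main reading frame in unstressed cells, is translated better. ATF4 protein enters the nucleus, pairs with other bZIP factors and switches on genes for amino acid supply, redox balance, feedback and, when stress lasts, cell death. Because ATF4 is controlled largely at translation, the level of its mRNA is not a measure of its protein, and the mRNAs of its targets are the nearer readout in RNA-seq. In blood-forming cells, the response is known for its part in the survival of stem and progenitor cells under nutrient and ER stress.

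None of the 7 tested genes of the response differed between recent KO and WT GMPs at an adjusted p-value of 0.05. By the same edgeR quasi-likelihood test, 0.331% of all tested genes (41 of 12381) were called, 0.121% higher and 0.21% lower in recent KO. With all samples none of the 7 reached an unadjusted p-value of 0.05 either, a level that 10.2% of all tested genes reached (4.89% higher and 5.35% lower in recent KO). DESeq2, which fitted all 10 genes, also called 0 at the adjusted threshold (it gave no adjusted p for *Atf3*) and 1, *Ddit4*, at the unadjusted one. *Mpc2* itself, at chr1:165460637-165481214 on the plus strand of GRCm38, served as the check of the labels. Its level in normalized CPM (read counts scaled to the size of each library) was 61.0, 111, 95.2, 117 and 60.9 in WT replicates 1 to 5, and 27.7, 17.1, 43.9, 37.0 and 35 in recent KO replicates 1 to 5. The groups did not overlap, which was so for 2.43% of all tested genes. The fitted log2 fold change of *Mpc2* was -1.46 (SE 0.24, n = 5 per group, edgeR adjusted p = 0.0156), and an exact two-sided permutation test of the means gave p = 0.00794, the smallest value that 5 against 5 samples allow. This call was lost when recent KO replicate 1 was left out (adjusted p = 0.05 by edgeR) and in fits on TPM, with a length offset or with the replicate number as a block (adjusted p = 0.0577 for the block). The paper floxed an exon of *Mpc2* and measured deletion by quantitative PCR of genomic DNA inside the loxP sites. Reads of the remaining exons can still enter the gene sum, so its level in recent KO does not measure how much functional *Mpc2* was left.

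Sequencing depth was similar in both groups, with 14133706 to 19745405 estimated reads in WT and 14033776 to 19658346 in recent KO samples. GMP genes dominated, with *Mpo*, a granule peroxidase, at 61000 ± 7470 CPM in WT and 42400 ± 7540 in recent KO (mean ± SD, n = 5). The 12 GMP markers summed to 90200 to 127000 CPM in WT and 53800 to 92200 CPM in recent KO. The 8 macrophage markers summed to 19.5 to 37.0 CPM in WT and 39.3 to 69.1 CPM in recent KO, and 3 of them, the complement genes *C1qa*, *C1qb* and *C1qc*, were called higher. The 9 erythroid markers summed to 9.1 to 42.6 CPM in WT and 24.5 to 209 CPM in recent KO. The 6 megakaryocyte markers summed to 9.79 to 18.3 and 21.5 to 31.0 CPM, which did not overlap, and the 7 markers of stem and multipotent progenitors to 48.0 to 55.7 and 53.7 to 73.6 CPM. In bulk RNA, fewer cells of a type and less RNA per cell cannot be told apart. The part of these marker differences in the values below was not tested.

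Levels of the 10 genes are compared with each other as TPM, which is scaled to transcript length. *Atf4* was by far the most abundant, at 100 ± 3.09 TPM in WT and 101 ± 3.95 TPM in recent KO (mean ± SD, n = 5), above 89.9% of all tested genes by the mean over samples. *Ddit3* followed at 23.0 ± 6.44 and 21.1 ± 3.89 TPM. Next came *Ppp1r15a* at 7.52 ± 1.46 and 7.01 ± 2.29 TPM, and *Nupr1* at 5.78 ± 4.12 and 6.18 ± 1.34 TPM. The remaining 6 genes lay at or under 1.2 TPM on average in both groups. In each group the sample ranges of neighbours in this order were apart between *Atf4* and *Ddit3*, between *Ddit3* and *Ppp1r15a*, and between *Nupr1* and *Sesn2*, and they overlapped for all other neighbours. At the bottom of the order, *Trib3*, *Ddit4* and *Atf3* averaged 0.191, 0.147 and 0.116 TPM in WT, and in recent KO *Ddit4* averaged 0.354, *Trib3* 0.34 and *Atf3* 0.0823 TPM.

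**Figure D1:**
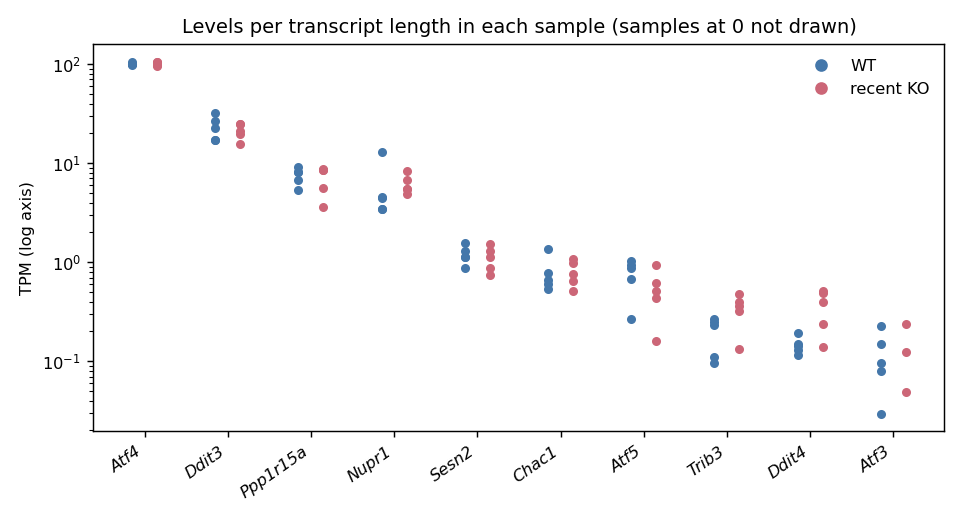
Level of each of the 10 genes in TPM on a log axis, ordered by the WT mean, with 1 point per sample (blue, 5 WT samples; red, 5 recent KO samples; samples at 0 TPM are not drawn). *Atf4* sits near 100 TPM in both groups, *Ddit3* between 15.5 and 32.1 TPM, and *Trib3*, *Ddit4* and *Atf3* under 1 TPM in every sample.

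The response has a recognizable DNA element, at which ATF4 binds together with a C/EBP partner. Its core, TGATGNAA, was searched on both strands in the RefSeq promoters of GRCm38.p6, from 250 bases before to 50 bases after each start site. All 10 genes had a promoter in this table. The core was in the promoters of *Atf3*, *Nupr1*, *Trib3* and *Chac1*, and in 3.97% of all 32851 promoters. The palindromic cyclic AMP response element TGACGTCA was in the promoter of *Ppp1r15a* alone among the 10 genes, and in 1.79% of all promoters, and no promoter of the 10 held both. The 5 matches are shown because they are what these promoters share or differ in. Each is written 5′ to 3′ along the gene's own strand with 10 flanking bases on either side, and the capitals mark the match, which for TGATGNAA lies on the opposite strand and is therefore printed as its reverse complement.
Atf3, minus strand, chr1:191183426-191183453: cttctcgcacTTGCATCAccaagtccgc
Nupr1, minus strand, chr7:126625563-126625590: aagggccagaTTGCATCAgacagggctt
Chac1, plus strand, chr2:119351039-119351066: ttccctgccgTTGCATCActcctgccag
Trib3, minus strand, chr2:152344029-152344056: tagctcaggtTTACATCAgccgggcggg
Ppp1r15a, minus strand, chr7:45526263-45526290: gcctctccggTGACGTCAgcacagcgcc
Measured from the RefSeq start site, the match began 110 bases before it in *Atf3* and in *Nupr1*, and 193 bases before it in *Chac1*. It began 12 bases before that site in *Ppp1r15a* and 14 bases after it in *Trib3*. RefSeq start sites can differ from the gene ends given below, and the *Trib3* match lies outside the span given for that gene. A match of letters describes the sequence and is not evidence of binding. As the values below show, genes with the TGATGNAA core were found both at the floor of detection (*Atf3*) and well above it (*Nupr1*).

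*Atf4* (ENSMUSG00000042406, chr15:80255184-80257541, plus strand) encodes the central transcription factor of the response. It stood at 173, 183, 198, 200 and 190 CPM in WT replicates 1 to 5. In recent KO replicates 1 to 5 it stood at 189, 183, 181, 175 and 185 CPM. The groups overlapped, and all 10 samples lay within a narrow band, with WT replicate 4 the highest and WT replicate 1 the lowest. The fitted log2 fold change between the groups was -0.05 in recent KO relative to WT (SE 0.05, edgeR adjusted p = 0.839). Its 95% interval, 0.891-fold to 1.05-fold, was the narrowest of the 7 tested genes. The sign of this small difference was not fixed, being 0.02 with library size as the only scaling and in the fits on TPM. Most *Atf4* reads were assigned to the same annotated transcript, Atf4-201, with 97.4 ± 0.75% in WT and 98.3 ± 0.249% in recent KO, which did not pass the exact two-sided permutation test (p = 0.0556, adjusted p = 0.222 over the 4 genes with several transcripts and at least 10 reads in every sample). The shares of the main transcripts of *Ddit3*, *Nupr1* and *Ppp1r15a* did not pass either (exact permutation test, adjusted p of 0.317 to 0.667), and that of Nupr1-201 was 83.4 ± 14.4% in WT and 73.5 ± 3.44% in recent KO.

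*Atf5* (ENSMUSG00000038539, chr7:44812256-44816658, minus strand) encodes a related factor that is also controlled by upstream reading frames and is known for the response to unfolded protein in mitochondria. It was low, at 0.489, 1.89, 1.42, 1.87 and 1.86 CPM in WT and 1.27, 0.28, 1.76, 0.913 and 0.825 CPM in recent KO replicates 1 to 5. WT replicate 1 lay among the recent KO values and recent KO replicate 3 among the WT values. The log2 fold change was -0.54 (SE 0.44, edgeR adjusted p = 0.747), with a wide 95% interval of 0.358-fold to 1.31-fold. Leaving out 1 sample moved it from -0.86 (without recent KO replicate 3) to -0.32 (without recent KO replicate 2). *Atf5* shares 571 bases with *Nup62* on the opposite strand, which averaged 134 CPM, and the SMARTseq kit does not mark strand, so that reads of the shared stretch cannot be told apart and the level of *Atf5* is uncertain.

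*Atf3* (ENSMUSG00000026628, chr1:191170296-191218039, minus strand), an ATF4 target and early stress factor, was close to undetected. It had 4, 6, 3, 7 and 1 reads in WT replicates 1 to 5 and 0, 7, 2, 0 and 5 reads in recent KO replicates 1 to 5. A count of 3 reads corresponded to 0.1525 to 0.2146 CPM in these libraries, and 5 of the 10 samples lay at or under it. A fall from this level could not be detected at this depth. Fitted without a filter on low counts, *Atf3* had a log2 fold change of -0.62 with an edgeR adjusted p of 0.826.

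*Ddit3* (ENSMUSG00000025408, chr10:127290774-127296288, plus strand) encodes CHOP, the factor through which lasting ER stress promotes cell death. Its values were 11.6, 20.1, 17.6, 26.6 and 12.3 CPM in WT replicates 1 to 5. They were 12.7, 13.3, 15.4, 18.1 and 18 CPM in recent KO replicates 1 to 5. All recent KO samples lay inside the range of the WT samples, whose highest value was that of replicate 4. The log2 fold change was -0.18 (SE 0.20, edgeR adjusted p = 0.840, 95% interval 0.655-fold to 1.19-fold), and it became 0.01 without WT replicate 4. The gene shares 68 bases with *Mars*, a tRNA synthetase gene of the opposite strand at 95.1 CPM. A second protein-coding gene entry, also named *Ddit3*, shares 2925 bases with it on the same strand and averaged 0.0 CPM.

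*Nupr1* (ENSMUSG00000030717, chr7:126623249-126630861, minus strand) encodes a small stress-induced chromatin protein. It had 1.91, 3.11, 2.08, 9.72 and 2.57 CPM in WT and 3.45, 3.57, 4.94, 3.23 and 3.4 CPM in recent KO replicates 1 to 5. WT replicate 4 was far above every other sample, and the other WT samples were all below every recent KO sample. With all samples the log2 fold change was -0.02 (SE 0.39, edgeR adjusted p = 0.993, 95% interval 0.549-fold to 1.76-fold). Without WT replicate 4 it was 0.63, with an unadjusted p of 0.0123 and an adjusted p of 0.433 by edgeR.

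*Trib3* and *Ddit4* were the only genes of the 10 with a higher mean CPM in recent KO, and both were too low to enter the main test. *Trib3* (ENSMUSG00000032715, chr2:152337422-152344032, minus strand) encodes a pseudokinase that feeds back on ATF4 and restrains AKT signalling. It had 4, 4, 11, 3 and 4 reads in WT and 11, 4, 8, 14 and 15 reads in recent KO replicates 1 to 5. WT replicate 3 lay among the recent KO samples, and the means were 0.309 ± 0.193 and 0.614 ± 0.259 CPM (SD, n = 5), a ratio of 1.99. *Ddit4* (ENSMUSG00000020108, chr10:59949669-59951834, minus strand) encodes REDD1, an inhibitor of mTORC1 that is also induced by hypoxia and glucocorticoids. It had 7, 5, 4, 4 and 4 reads in WT and 4, 10, 18, 7 and 18 reads in recent KO replicates 1 to 5. In CPM, recent KO replicates 2, 3, 4 and 5 lay above every WT sample and replicate 1 lay among them, with means of 0.282 ± 0.0456 and 0.643 ± 0.282 CPM and a ratio of 2.28. Fitted without a filter on low counts, *Ddit4* had a log2 fold change of 1.21 with an unadjusted p of 0.0396 and an adjusted p of 0.59 by edgeR, and of 0.427 by DESeq2. For *Trib3*, the same fit gave 1.00 with an edgeR adjusted p of 0.596. *Trib3* also passed the filter in 6 of the fits that left out 1 sample, with log2 fold changes of 0.85 to 1.17 and edgeR adjusted p-values of 0.307 to 0.697. In 2 of these, without recent KO replicate 2 or 3, its unadjusted p was 0.026 and 0.038. Both genes were thus measured on few reads, and neither difference passed the test.

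*Chac1* (ENSMUSG00000027313, chr2:119351229-119354381, plus strand) encodes an enzyme that degrades glutathione and is a classic target of ATF4. It had 1.08, 1.05, 1.01, 2.56 and 1.32 CPM in WT and 1.2, 1.75, 1.27, 0.852 and 1.65 CPM in recent KO replicates 1 to 5. WT replicate 4 was again the highest of all samples, and the log2 fold change was -0.04 (SE 0.32, edgeR adjusted p = 0.979, 95% interval 0.601-fold to 1.57-fold). It turned to 0.27 without WT replicate 4, with an adjusted p of 0.88.

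*Sesn2* (ENSMUSG00000028893, chr4:132492032-132510501, minus strand) encodes a leucine-binding inhibitor of mTORC1 that is induced by ATF4 and by p53. It had 4.41, 6.66, 3.92, 5.83 and 4.55 CPM in WT and 3.80, 2.87, 4.45, 5.91 and 5.10 CPM in recent KO replicates 1 to 5. The ranges overlapped for most of their length, and the log2 fold change was -0.19 (SE 0.21, edgeR adjusted p = 0.833, 95% interval 0.644-fold to 1.2-fold).

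*Ppp1r15a* (ENSMUSG00000040435, chr7:45522916-45526268, minus strand) encodes GADD34, the regulatory subunit that brings protein phosphatase 1 to eIF2α and so ends the response. Its values were 13.9, 23.2, 24.0, 28.1 and 18.2 CPM in WT replicates 1 to 5. They were 10.5, 14.5, 22.9, 22.6 and 22.6 CPM in recent KO replicates 1 to 5. Recent KO replicates 3, 4 and 5 sat together near the middle of the WT samples, while replicates 1 and 2 were lower. The log2 fold change was -0.20 (SE 0.22, edgeR adjusted p = 0.839, 95% interval 0.628-fold to 1.21-fold). It shares 717 bases with *Tulp2* of the opposite strand, which averaged only 0.158 CPM.

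**Figure D2:**
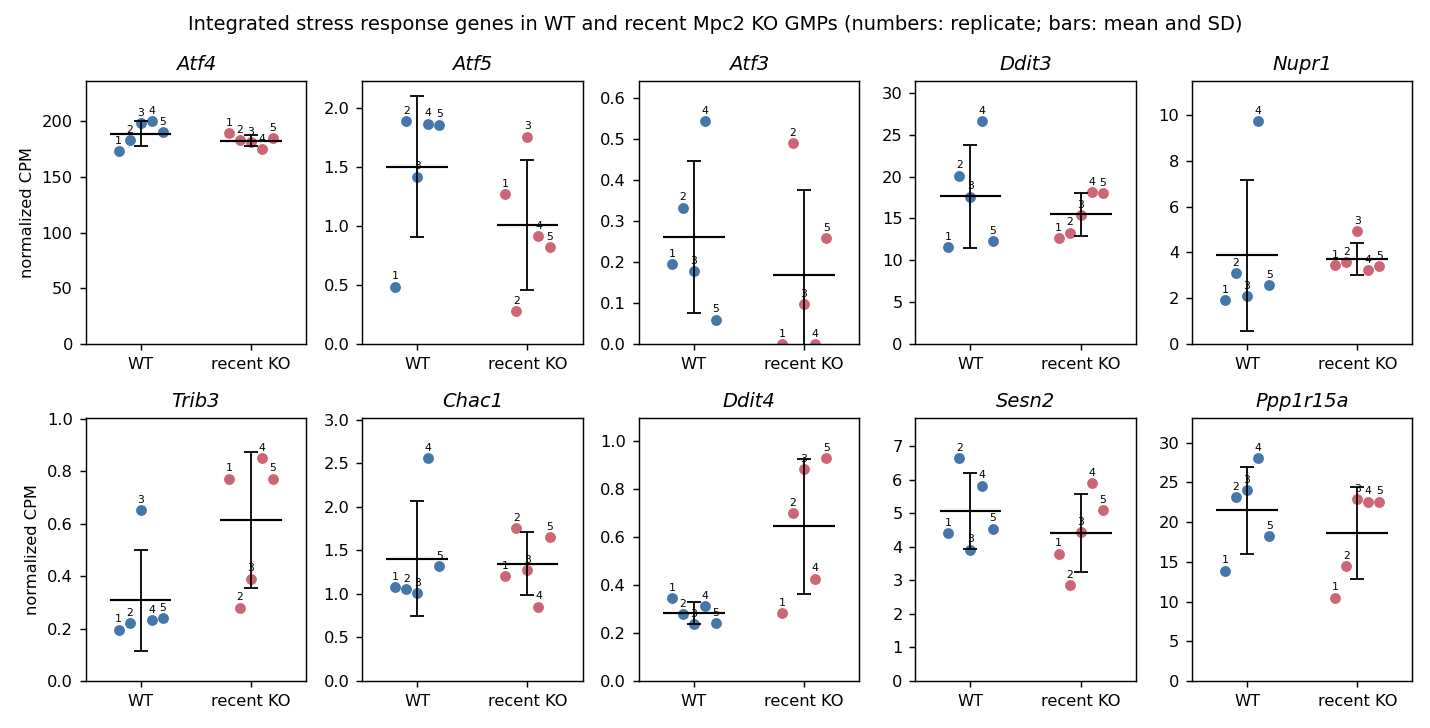
Normalized CPM of each of the 10 genes in every sample, with the replicate number beside each point, a horizontal line at the mean and bars of 1 SD (n = 5 per group). The groups overlap in all 10 panels, and WT replicate 4 is the highest WT sample for *Atf4*, *Atf3*, *Ddit3*, *Nupr1*, *Chac1* and *Ppp1r15a*.

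**Figure D3:**
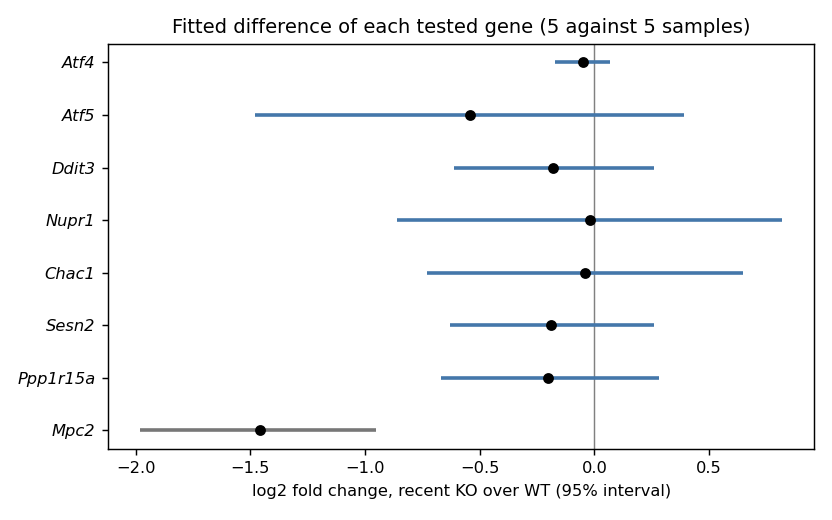
Fitted log2 fold change, recent KO relative to WT, with its 95% interval for the 7 tested genes and, for scale, *Mpc2*. The intervals of the 7 genes all include 0 and range in width from that of *Atf4* (-0.17 to 0.07) to that of *Atf5* (-1.48 to 0.39), whereas that of *Mpc2* runs from -1.98 to -0.95.

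All 7 tested genes had a fitted log2 fold change below 0, from -0.54 to -0.02, with a median of -0.18, while 50.4% of all tested genes lay below 0. Of the 3 genes that missed the filter, *Trib3* and *Ddit4* had a higher mean CPM in recent KO (ratios of 1.99 and 2.28) and *Atf3* a lower one (0.645). With library size as the only scaling, which moved the median of all genes up by 0.07, *Atf4*, *Nupr1* and *Chac1* changed sign. WT replicate 4 had the highest value among the WT samples for 5 of the 7 genes, compared with 23.5% of all tested genes, and its median log2 ratio to the mean of the other WT samples was 0.49 over the 7 genes and -0.01 over all genes. Without WT replicate 4 the log2 fold changes of *Ddit3*, *Nupr1* and *Chac1* were 0.01, 0.63 and 0.27. In that fit 0 of the genes of the response passed the adjusted threshold, as in every other alternative tried.

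Sample-to-sample differences in several of these genes followed those of immediate-early genes such as *Fos*, *Jun* and *Egr1*, which are induced within minutes by growth factors and by handling of cells. The summed level of the 18 listed immediate-early genes ranged from 412 to 785 CPM in WT and from 390 to 660 CPM in recent KO. It was highest in WT replicate 4 and lowest in recent KO replicate 1. This relation was chosen after the values were seen and computed for the 7 tested genes, so it is given as a description over 10 samples that share their library preparation, with no p-value. How many of all tested genes follow this sum as closely was not computed. The relation is therefore not shown to be particular to genes of the response. For *Ppp1r15a* Pearson's r was 0.95 and Spearman's rho 0.93, with r = 0.95 within WT and within recent KO. Without WT replicate 4 and recent KO replicate 1, the samples farthest from the median, r was 0.91. *Ddit3* gave r = 0.89 and rho = 0.85, and r = 0.82 without those samples, and *Sesn2* gave r = 0.74 and rho = 0.73, and r = 0.69 without them. For *Atf4* the relation was weak, with r = 0.31, rho = 0.21 and opposite signs within the groups (0.69 in WT and -0.77 in recent KO). *Nupr1* gave r = 0.65 and rho = 0.33, *Atf5* r = 0.62 and rho = 0.68, and *Chac1* r = 0.34 and rho = -0.01. The part of this variation in the comparison of the groups was not tested.

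**Figure D4:**
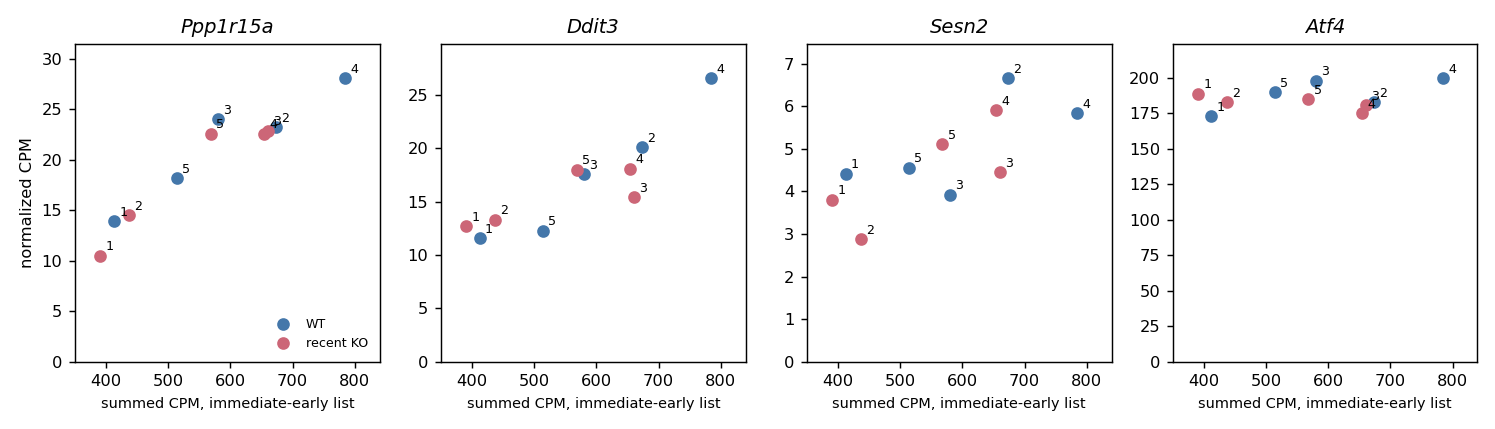
Normalized CPM of *Ppp1r15a*, *Ddit3*, *Sesn2* and *Atf4* (vertical axes, from 0) against the summed CPM of 18 immediate-early genes (horizontal axes) in the same sample, with replicate numbers beside the points (blue, WT; red, recent KO). *Ppp1r15a* and *Ddit3* rise along the axis in both groups, and *Atf4* stays between 173 and 200 CPM.

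Among the 5 genes whose levels varied most like *Atf4*, by Pearson's r of log2 CPM centred within each group over the 10 samples out of 9744 genes, were *Reep5* (0.901), *Mif* (0.897), *Hist2h2ac* (0.888) and *Tle1* (0.885). Of the 10 genes of the response, only *Ddit3*, *Nupr1*, *Sesn2* and *Ppp1r15a* could have appeared among the 5, and none did. *Atf4* was the gene compared with. The remaining genes, *Atf5*, *Atf3*, *Trib3*, *Chac1* and *Ddit4*, averaged fewer than 50 reads per sample and were not ranked. How high r rises by chance among so many genes was not tested, so the ranking is a description only. *Reep5*, *Mif*, *Hist2h2ac* and *Tle1* did not pass the test between the groups, with edgeR adjusted p-values of 0.765 to 0.996.

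Upstream of ATF4, 0 of the 10 kinases and kinase regulators were called, against 0.331% of all tested genes. The median log2 fold change of these 10 was -0.08, against 0.0 over all tested genes. The smallest p-values were those of *Dnajc3*, an ER co-chaperone that inhibits eIF2α kinases, and *Eif2ak3*, which encodes the ER stress kinase PERK. *Dnajc3* had 190 ± 39.9 CPM in WT and 144 ± 8.72 in recent KO (log2 fold change -0.40, SE 0.11, edgeR adjusted p = 0.206). Its groups did not overlap, as for 2.43% of all tested genes, with a lowest WT value of 156 CPM and a highest recent KO value of 155 CPM. WT replicate 4 stood at 259 CPM, and without it the log2 fold change was -0.27. With no filter on low counts *Dnajc3* passed (adjusted p = 0.0166 by edgeR), in a fit that called 206 genes against 41 in the main test. Over the other alternatives its adjusted p ran from 0.0516 to 0.811. *Eif2ak3* had 5.90 ± 1.08 and 4.5 ± 0.444 CPM (-0.39, SE 0.15, adjusted p = 0.409 by edgeR). Of the 17 genes for eIF2, its exchange factor eIF2B, its phosphatase and re-initiation factors, 0 were called, with a median of 0.02 and a range of -0.18 to 0.16. The smallest p-values here were those of *Mcts1*, a re-initiation factor (0.16, edgeR adjusted p = 0.425), and *Ppp1cc*, a catalytic subunit of the phosphatase that GADD34 directs (0.11, adjusted p = 0.508). Among the bZIP partners of ATF4, 8 of 9 were tested and 0 called, with a median of -0.11. *Cebpb* had 74.6 ± 23.9 CPM in WT and 56.2 ± 8.45 in recent KO (-0.41, edgeR adjusted p = 0.443), and *Jun* 68.8 ± 23.9 and 49.9 ± 14.7 CPM (-0.46, adjusted p = 0.537). Without WT replicate 4 these log2 fold changes were -0.20 for *Cebpb* and -0.25 for *Jun*.

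Downstream, 43 of 48 further ATF4 targets were tested and 0 were called, against 0.331% of all tested genes. The median log2 fold change of the 43 was -0.01, with 19 above 0 and 24 below. An unadjusted edgeR p-value under 0.05 was reached by 3 (2 higher, 1 lower in recent KO). Over all tested genes, 10.2% reached it (4.89% higher, 5.35% lower). Amino acid synthesis genes (11 of 13 tested) had a median of 0.02. The smallest p-values among them were those of *Psat1*, a serine synthesis enzyme, at 160 ± 9.45 and 180 ± 9.12 CPM (0.17, SE 0.06, edgeR adjusted p = 0.330), and *Got1*, an aspartate aminotransferase (0.13, adjusted p = 0.677). Amino acid transporters (8 of 10 tested) also had a median of 0.02, with *Slc7a5*, which carries large neutral amino acids, at 42.2 ± 3.38 and 49.0 ± 7.58 CPM (0.22, SE 0.10, edgeR adjusted p = 0.487). *Slc7a11*, the cystine importer, was low at 1.94 ± 0.852 and 1.47 ± 0.452 CPM (-0.36, SE 0.33, adjusted p = 0.794 by edgeR), and its value was unstable, being 0.42 when protein-coding transcripts alone were summed, -0.92 with a length offset and -0.11 without WT replicate 4. The tRNA synthetase list (13 of 13 tested) had a median of -0.03 and spanned only -0.12 to 0.11, with *Aars* (edgeR adjusted p = 0.607) and *Tars* (0.653) both at -0.12. The list of secreted and other targets (11 of 12 tested) had a median of -0.03. In it, the angiogenic factor gene *Vegfa* had 9.82 ± 2.95 and 7.16 ± 0.963 CPM (-0.45, SE 0.19, edgeR adjusted p = 0.436) and *Ndrg1* 23.4 ± 0.902 and 26.5 ± 5.27 CPM (0.18, adjusted p = 0.643).

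**Figure D5:**
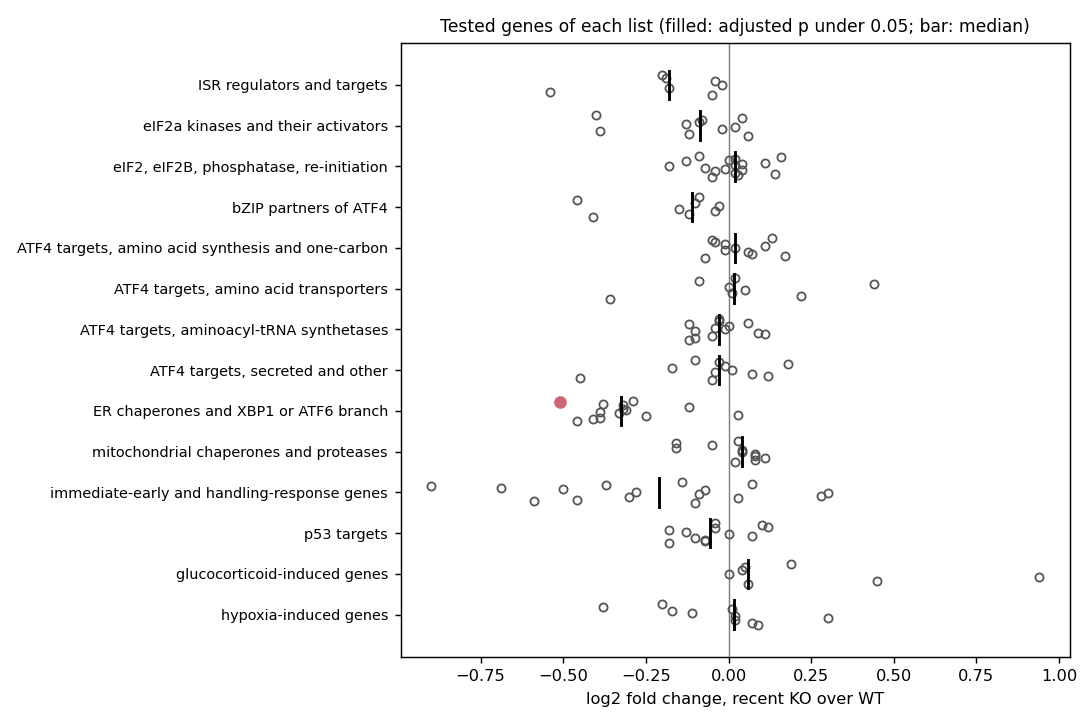
Log2 fold change, recent KO relative to WT, for the tested genes of each list, with 1 circle per gene, a filled circle for an adjusted p-value under 0.05 and a bar at the median of the list. *Hyou1* in the ER list is the single filled circle, and the medians run from -0.33 (ER list) to 0.06 (glucocorticoid-induced genes).

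Neighbouring stress programmes were read in the same fit, in which 0.331% of all tested genes were called. In the ER chaperone list, which follows the XBP1 and ATF6 branches of the response to unfolded protein, 13 of 14 genes lay below 0, the median was -0.33, and 11 had an unadjusted p-value under 0.05 against 10.2% of all genes. Only *Hyou1*, an ER chaperone, was called, with 14.7 ± 1.27 CPM in WT and 10.3 ± 0.874 in recent KO (log2 fold change -0.51, SE 0.10, edgeR adjusted p = 0.0406). The call was lost on leaving out any of 8 of the 10 samples in turn (adjusted p of 0.07 to 0.112 by edgeR), while over all such leave-outs the log2 fold change stayed between -0.55 and -0.47. WT replicate 4 was the highest WT sample for 12 of the 14 genes. The list summed to 12100 CPM in that sample, to 7540 to 8880 CPM in the other WT samples and to 6030 to 7550 CPM in recent KO. The summed GMP markers were also highest in WT replicate 4 (127000 CPM). Both sums were lowest within WT in replicate 5 (90200 CPM for GMP markers, 7540 CPM for the ER list). Within recent KO, replicate 2 had the highest GMP sum (92200 CPM) and the lowest ER sum (6030 CPM). The part of the GMP markers in the ER values was not tested.

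For mitochondrial chaperones and proteases, 0 of 11 genes were called and the median was 0.04. The smallest p-values belonged to *Htra2* (-0.16, SE 0.07, edgeR adjusted p = 0.449) and *Yme1l1* (-0.16, adjusted p = 0.495), both mitochondrial proteases. Of the 18 immediate-early genes, 16 were tested and 0 called, with a median of -0.21, and *Klf6* had 15.4 ± 2.98 and 11.8 ± 1.66 CPM (edgeR adjusted p = 0.366), followed by *Klf2* (adjusted p = 0.529). The p53 targets, read because p53 also induces *Sesn2*, gave 0 calls among 12 with a median of -0.05. *Bax*, a mediator of cell death, and *Cdkn1a*, a cell cycle inhibitor, were both at -0.18 (adjusted p = 0.591 and 0.847 by edgeR). The part of p53 in the level of *Sesn2* was not tested. Hypoxia-induced genes gave 0 calls among 10 with a median of 0.01, with *Car9* at -0.17 (edgeR adjusted p = 0.486) and *P4ha1* at -0.20 (adjusted p = 0.590).

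The glucocorticoid-induced list, read because glucocorticoids also induce *Ddit4*, had 0 calls among 7 and a median of 0.06. The part of glucocorticoids in the *Ddit4* reads was not tested. *Per1*, a clock gene, had 2.04 ± 0.658 CPM in WT and 3.86 ± 0.892 in recent KO (0.94, SE 0.25, edgeR adjusted p = 0.183), and passed with DESeq2 (adjusted p = 0.0312) and in edgeR without a filter on low counts (0.0494). *Tsc22d3*, which encodes GILZ, had 30.5 ± 5.50 and 41.7 ± 7.30 CPM (0.45, SE 0.14, edgeR adjusted p = 0.238), which was 0.0789 with DESeq2 and 0.0324 in edgeR without that filter. Over all genes DESeq2 called 156 and edgeR without that filter 206, against 41 in the main test.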

How the data were processed

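GMP libraries of 5 WT and 5 recent KO samples, grouped by their titles, were made with SMARTseq V4 and sequenced on an Illumina NovaSeq. The authors quantified Gencode M27 transcripts with Salmon (1.5.1 in the submitters' notes) and deposited, per transcript, estimated counts, which are not normalized, as well as TPM, a length-scaled abundance with a fixed total per sample. The deposited effective lengths (other values of Salmon) entered a length offset. The authors' table of their own DESeq2 comparison (mean signal, log2 fold changes, scores and p-values) was not used.

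Transcripts were matched to GENCODE M21 (GRCm38) by Ensembl identifier without version (97.4%), summed to genes and rounded. Gene positions are from M21, whereas promoters and their start sites are from RefSeq. The unmatched transcripts were left out. Libraries held 14033776 to 19745405 estimated reads, and 3 counts, used as a floor that covers counting error only, were 0.1525 to 0.2146 CPM. No columns held identical values. The main test was edgeR 4.0.16's quasi-likelihood test (R 4.3.3) with TMM, filterByExpr at a minimum count of 10 and Benjamini-Hochberg adjustment over all 12381 genes. DESeq2 1.42.0 and limma 3.58.1 on log2(TPM + 1) and log2(TPM + 0.1) were alternatives. Transcript shares were compared by exact permutation tests. The steps were tested on simulated data. Replicate numbers are shared by both groups in the labels but did not pair the samples.

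The genes and lists were chosen with earlier results of these data known. Named were the 10 genes, *Mpc2*, in each list every called gene and otherwise the 2 with the smallest p, and the 5 genes most like *Atf4* among those with a mean count of at least 50, of which 1 is not reported here. Other genes are named where a statement counts them. Of the 235 listed genes, 2 were matched through RefSeq synonyms. No transcript of a gene with another name aligned to a protein-coding transcript of the 10 genes at 85% identity over 150 bases. Gene entries that share a name, such as the second *Ddit3* entry, were not counted.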

Additional observations from a re-analysis of the deposited data

Results flagged for a closer look

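Among the 22 groups of 5 samples examined, the lowest or highest sample stood apart by Dixon's criterion in 4. At 1 in 20, about 1.1 would be due for independent groups of normally distributed values. These groups are genes measured in the same libraries and are not independent, so the count is a description only. *Nupr1* in WT replicate 4 was 9.72 CPM, with the other WT samples at 1.91 to 3.11 CPM. *Chac1* was also highest in WT replicate 4, at 2.56 CPM, with the others at 1.01 to 1.32 CPM. *Nupr1* in recent KO replicate 3 was 4.94 CPM, with the others at 3.23 to 3.57 CPM. *Trib3* in WT replicate 3 was 0.653 CPM, or 11 reads, with the others at 0.196 to 0.239 CPM.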

How the results depend on the processing

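In all 22 alternatives, 0 genes of the response passed the threshold, and the lowest adjusted p among the 7 tested genes was 0.433. *Mpc2* stayed lower throughout, from -1.60 to -1.31 when 1 sample was left out, and missed the threshold in limma fits of TPM with a pseudocount of 0.1 (-1.38) or of 1 with a filter (-1.35) and without (-1.35), with a length offset (-1.40), with the replicate block (-1.46) and without recent KO replicate 1. The number of genes called over the whole table was 41, and it was 156 with DESeq2, 206 if genes of low count were kept, 24 (pseudocount 0.1) and 25 (pseudocount 1) in limma fits of filtered TPM, 13 in limma fits of all TPM, 19 with protein-coding transcripts, 20 with the replicate block, and 25 to 91 when 1 sample was left out. It was 91 without recent KO replicate 2, 25 without replicate 3 or 4 of that group and 26 without WT replicate 3. The causes were not tested.

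The log2 fold change changed sign to 0.02 for *Atf4* with library size only and in those limma fits (0.02 in each of the 3). *Nupr1* turned to 0.08 with library size only, 0.27, 0.22 and 0.22 in the limma fits, 0.21 with the replicate block and 0.01 with the length offset. *Chac1* turned to 0.04 with library size only, 0.02 with limma without a filter and 0.0 with the replicate block, and *Slc7a11* to 0.42 with protein-coding transcripts. Leaving out 1 sample gave -0.30 to 0.01 for *Ddit3*, -0.20 to 0.63 for *Nupr1* and -0.15 to 0.27 for *Chac1*, each highest without WT replicate 4. It gave -0.86 to -0.32 for *Atf5*, -0.31 to -0.07 for *Sesn2*, -0.32 to -0.05 for *Ppp1r15a* and -0.08 to -0.03 for *Atf4*. The call of *Hyou1* (-0.51) was lost with library size only (-0.44, adjusted p = 0.134), protein-coding transcripts (-0.56, adjusted p = 0.0738), the length offset (-0.50, adjusted p = 0.105) and the replicate block (-0.52, adjusted p = 0.0964) in edgeR, with limma (-0.42 to -0.31, adjusted p of 0.339 to 0.611) and without 8 of the 10 samples in turn (adjusted p of 0.07 to 0.112).

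Samples with the same replicate number did not deviate together (r from -0.177 to 0.048, with 0 of 5 WT samples closest to their own number), so the numbers were not treated as pairs. Depth limits *Atf3*, *Trib3* and *Ddit4*, each with at most 18 reads in a sample.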
